A study of Caenorhabditis elegans with 24 samples.

Results

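The interval from position 12900001 to 13000000 of chromosome III of the nematode Caenorhabditis elegans (build ce11) holds unc-25 and flp-14, which are genes of neurons, ttm-1, which encodes a zinc transporter, and npp-25, a gene named for the nuclear pore. It was chosen from the data. Of the 7 bins of 100 kb whose emerin signal exceeded the control in all 12 pairs of libraries, it had the largest mean ratio. It was examined as 10 of the 10028 nuclear bins of 10 kb, and as 1 bin of 100 kb with 3 neighbours on each side, 7 of the 1005 nuclear bins of that size. Since the ratio of emerin signal to control chose the interval, that ratio is given here as a description and carries no test. Most of the excess did not lie at the genes for which the interval is named. In round 1, where it was largest, it lay mainly in the bin shared by ttm-1 and bckd-1A. Without this bin the mean log2 ratio was 0.37, 0.28 and 0.70 in rounds 1, 2 and 3, against 2.81, 0.29 and 1.10 with it. The bins of unc-25, flp-14 and npp-25 had log2 ratios of 0.75 ± 1.33, −0.19 ± 1.47 and −0.81 ± 2.34 (mean ± SD over the 12 pairs). These were above 0 in 8, 7 and 3 pairs.

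The measurement is DamID, in which the bacterial enzyme Dam methylates adenine in GATC near the protein it is fused to, and the restriction enzyme DpnI then cuts only the methylated sites. Emerin, made from emr-1, is a protein of the inner nuclear membrane that works beside the lamin meshwork, so Dam-EMR marks chromatin at the nuclear envelope. GFP-Dam diffuses through the nucleus and marks accessible DNA. In worms the chromodomain protein CEC-4 holds chromatin carrying methylated histone H3 lysine 9 at the envelope, and envelope contact is best known for the outer parts of the chromosomes and for silent genes.

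All 24 libraries came from L3/L4 larvae grown for 26 h at 22.5 °C on Dam-negative bacteria. Both fusions stood behind the hsp-16.41 promoter, left un-induced so that only traces of protein were made, and a myo-3p::FLP driver set the tissue. The sample labels name body wall muscle as the tissue, and myo-3, the gene of the driver, is a body wall muscle gene. The design text instead names the intestine, and a DNA assay offers no marker expression with which to check either. The 4 strains carried GFP::LMN-1 with intact cec-4, GFP::LMN-1 with cec-4(ok3124), GFP::LMN-1(Y59C) with intact cec-4, or GFP::LMN-1(Y59C) with cec-4(ok3124). They are called GFP-LMN, GFP-LMN cec4, Y59C and Y59C cec4 below. The substitution Y59C models lamin mutations found in Emery-Dreifuss muscular dystrophy of humans. All strains, controls included, thus carried a GFP-tagged lamin. Each combination of strain and fusion was 1 worm line with 3 biological replicates, and each library came from pooled larvae. Within a replicate number all strains were grown in parallel, so a replicate number is called a round, and a pair is the Dam-EMR and GFP-Dam library of 1 strain in 1 round. Effects of a fusion and of the worm line that carries it cannot be told apart.

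GFP-Dam libraries held between 2728741 and 19442775 reads in the 100 kb table, and Dam-EMR libraries between 35370 and 6936077. The shallowest, Dam-EMR of Y59C in round 3, had 24 reads in the whole interval, and values that rest on it are marked. Levels are given as CPM, the reads of a bin scaled to a common library total. Ratios are log2 of Dam-EMR over GFP-Dam CPM with 1 read added, as mean ± SD over pairs. The reads were amplified by PCR and carry no molecular identifiers, so intervals on shares of reads cover counting error only.

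At 100 kb the ratio of the interval was 1.40 ± 1.19 on the log2 scale (12 pairs), above 0 in 12 of 12 pairs, and ranked 5 of 1005 bins. In round 1 the ratios were 1.81 in GFP-LMN, 2.51 in GFP-LMN cec4, 3.42 in Y59C and 3.51 in Y59C cec4. In round 2 the ratios in the same order were 0.37, 0.21, 0.10 and 0.50. In round 3 they were 1.10, 0.75, 1.07 and 1.50, the third of these from the shallow library. The 4 ratios of round 1 lay above all those of round 2, as in 5.48% of the 1004 bins tested, and above all those of round 3, as in 1.89%. Round 3 lay above round 2, as in 9.26% of bins. The mean was 2.81 in round 1, 0.29 in round 2 and 1.10 in round 3. Without round 1 the mean over the remaining 8 pairs was 0.70. The authors' deposited table gives log2 ratios of 1.21 for GFP-LMN, 1.51 for GFP-LMN cec4, 2.20 for Y59C and 2.38 for Y59C cec4 in this bin, each the log2 of the mean over 3 replicates of the linear ratio, which weights round 1 more than a mean of log2 ratios does.

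In round 1 the rise was on the Dam-EMR side. Dam-EMR levels in the interval ran from 1657 to 5741 CPM in round 1, from 453 to 935 CPM in round 2 and from 679 to 934 CPM in round 3. GFP-Dam levels ran from 458 to 503 CPM in round 1, from 423 to 725 CPM in round 2 and from 247 to 438 CPM in round 3. The Dam-EMR libraries of round 1 thus stood between 2.56 and 10.1 times the median 100 kb bin of their own library, while the 12 GFP-Dam libraries lay between 0.626 and 1.00 times theirs. In round 2 the fusions overlapped, with Dam-EMR at 0.752 to 1.43 times the median bin and GFP-Dam at 0.648 to 1.00 times. In round 3 Dam-EMR stood at 1.22 to 1.55 times and GFP-Dam at 0.626 to 0.739 times, so low GFP-Dam also entered that ratio.

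A single 10 kb bin, III:12960001-12970000, held most of the Dam-EMR signal of round 1. It contains 6995 bases of ttm-1 (III:12952969-12966995), which encodes a zinc transporter of the cation diffusion facilitator family that exports zinc, and 2064 bases of bckd-1A (III:12967937-12972498), which encodes the E1 alpha subunit of the mitochondrial branched-chain keto acid dehydrogenase. Its ratio was 3.75 ± 3.05 on the log2 scale (12 pairs), the highest mean of all 10028 bins, and it was above 0 in 11 of 12 pairs.

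The Dam-EMR reads of the bin at ttm-1 and bckd-1A show how uneven it was. In GFP-LMN the bin held 1088, 6 and 1154 Dam-EMR reads in rounds 1, 2 and 3, or 1257, 11 and 370 CPM. In GFP-LMN cec4 it held 1801, 47 and 1145 reads, or 2835, 15.1 and 186 CPM. The libraries of Y59C held 2578, 60 and 2 reads, or 4801, 23.2 and 57.2 CPM, the last value from the shallow library, where 3 reads already make 85.8 CPM. In Y59C cec4 it held 1026, 25 and 917 reads, or 6299.5, 5.85 and 295 CPM. In every strain round 1 was the highest, round 2 the lowest and round 3 between them, though in Y59C the order of rounds 2 and 3 rests on 2 reads. In round 1 the level was 43.5 to 257 times that of the library's median bin, and the bin ranked 46, 9, 5 and 4 among all 10 kb bins in the order of strains above. In round 2 it was 1.36 times the median bin in Y59C and 0.255 to 0.783 times it in the other strains. In round 3 it was 2 to 14.8 times the median bin.

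GFP-Dam in the same bin stayed low. In GFP-LMN it gave 288, 16 and 144 reads in rounds 1 to 3, or 17.3, 5.87 and 17.6 CPM. In GFP-LMN cec4 it gave 394, 35 and 197 reads, or 20.3, 10.0 and 23.5 CPM. The Y59C libraries held 312, 28 and 251 reads, or 20.4, 4.67 and 22.8 CPM, and those of Y59C cec4 held 291, 34 and 158 reads, or 18.5, 11.1 and 33.4 CPM. Round 2 was lowest in GFP-Dam too, in each of the 4 strains, though the spread between rounds was far smaller than in Dam-EMR. The log2 ratios of the bin were therefore 6.18, 7.12, 7.87 and 8.41 in round 1, in the order GFP-LMN, GFP-LMN cec4, Y59C and Y59C cec4. They were 1.04, 0.58, 2.28 and −0.91 in round 2, and 4.39, 2.97, 1.91 and 3.13 in round 3. Its mean ratio was 7.40 in round 1, 0.75 in round 2 and 3.10 in round 3, and without round 1 the mean over 8 pairs was 1.92. Depth also differed between rounds. The Dam-EMR libraries held 210085 to 903342 reads in round 1, 547403 to 4282156 in round 2 and 35370 to 6936077 in round 3, and the part of depth in the difference between rounds was not tested.

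**Figure D1:**
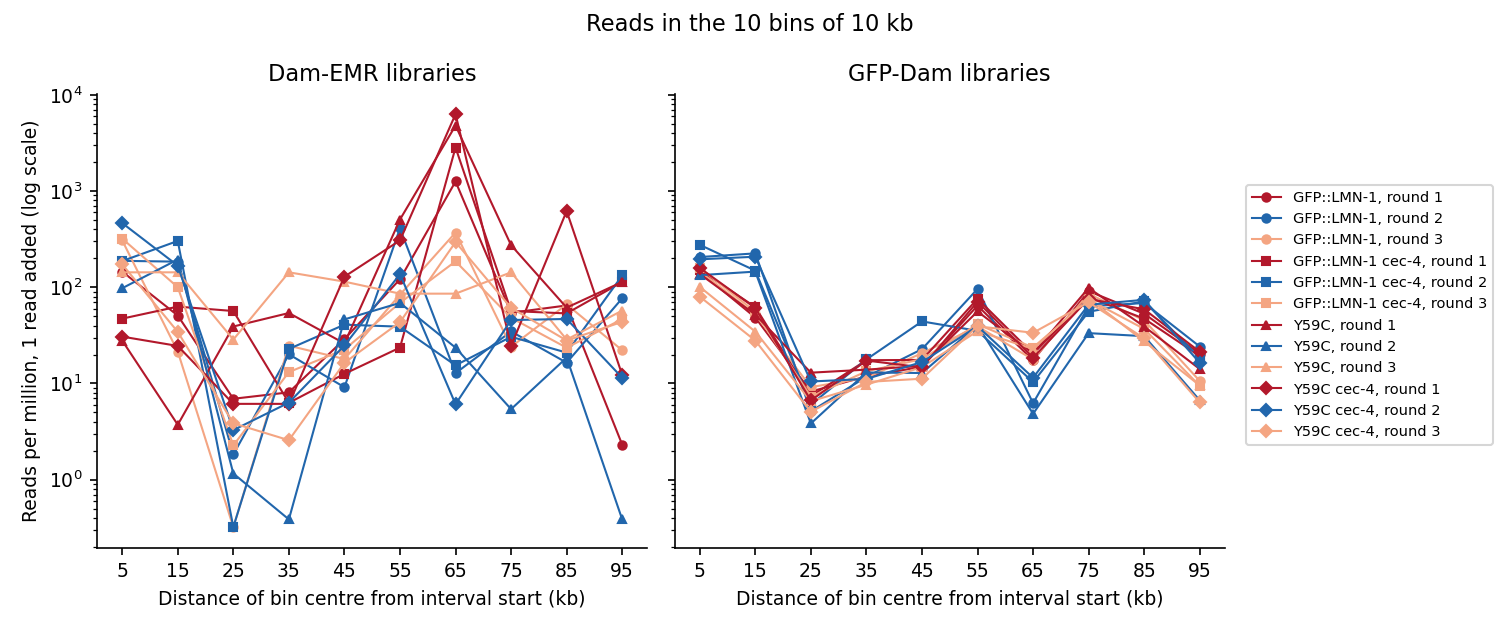
Levels in the 10 bins of 10 kb across the interval, as CPM with 1 read added on a log axis, for the 12 Dam-EMR libraries (left) and the 12 GFP-Dam libraries (right). Colours mark rounds and symbols mark strains. The 4 Dam-EMR libraries of round 1 peak between 1257 and 6299.5 CPM in the bin at ttm-1 and bckd-1A, where no GFP-Dam library exceeds 33.4 CPM.

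The share of the interval's Dam-EMR reads that fell in this bin followed the rounds. In round 1 it was 72.7% (95% exact Clopper-Pearson interval 70.3 to 74.9%) in GFP-LMN, 87.1% (85.6 to 88.5%) in GFP-LMN cec4, 81.5% (80.1 to 82.8%) in Y59C and 85.1% (82.9 to 87.0%) in Y59C cec4. In round 2 the share was 1.17% (0.431 to 2.53%), 1.92% (1.41 to 2.54%), 5.12% (3.93 to 6.54%) and 0.642% (0.416 to 0.946%) in the same order. In round 3 it was 39.6% (37.8 to 41.4%), 22.4% (21.2 to 23.5%), 8.33% (1.03 to 27%) and 42.2% (40.1 to 44.3%), where 8.33% is 2 of 24 reads. In GFP-Dam the share lay between 0.808% and 10.7% in all 12 libraries, close to or below an even spread over the bins. With the reads of this bin left out, the ratio of the interval was 0.45 ± 0.45 on the log2 scale (12 pairs), between −0.39 and 1.05 and above 0 in 10 of 12 pairs. By round the remaining ratio was 0.37, 0.28 and 0.70, against 2.81, 0.29 and 1.10 with the bin, so that round 2 hardly moved, and all pairs of rounds 2 and 3 stayed above 0. With the median bin of every pair set to 0, the remaining ratio was 0.51, 0.35 and 0.46 by round, in the order of the whole interval, and above 0 in 11 of 12 pairs. By strain it was 0.26 in GFP-LMN, 0.10 in GFP-LMN cec4, 0.71 in Y59C and 0.74 in Y59C cec4.

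All 4 ratios of round 1 lay above all 4 of round 2 in the bin at ttm-1 and bckd-1A, which was also the case in 7.03% of the 9594 bins of 10 kb with at least 10 reads on average. It also held against round 3, as in 0.844% of those bins. Of the 10 bins, those starting at 12920001 and 12980001 also had round 1 above round 2. The bin at 12980001 had round 3 above round 2, as in 7.3% of bins, and the bin at 12900001 had round 3 above round 1, as in 5.52%. All of these shares describe the ratio that chose the interval, so nothing is read from them about the interval.

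The gene unc-25 (III:12942651-12949883) encodes glutamic acid decarboxylase, the enzyme that makes the transmitter GABA, and lies whole in the bin starting at 12940001 with the end of epg-3, an autophagy gene. Its ratio was 0.75 ± 1.33 on the log2 scale (12 pairs), above 0 in 8. In GFP-LMN the bin held 24, 4 and 55 Dam-EMR reads in rounds 1 to 3, or 27.7, 7.31 and 17.6 CPM, beside 14.9, 22.4 and 20.5 CPM of GFP-Dam. In GFP-LMN cec4 it held 7, 126 and 138 Dam-EMR reads, or 11, 40.6 and 22.4 CPM, beside 17.5, 43.9 and 17.8 CPM of GFP-Dam. In these strains with unmutated lamin, Dam-EMR and GFP-Dam levels of unc-25 overlapped. The Dam-EMR libraries of Y59C held 24.2, 46 and 85.8 CPM, beside 15.2, 12.7 and 14.7 CPM of GFP-Dam. In Y59C cec4 it held 20, 105 and 50 Dam-EMR reads, or 122.8, 24.6 and 16.1 CPM, beside 14.7, 16.4 and 11 CPM of GFP-Dam. In the Y59C strains Dam-EMR was above GFP-Dam in all 6 pairs, and the highest values, 85.8 and 122.8 CPM, came from 3 and 20 reads. In the Y59C pair of round 3 the median 10 kb bin itself had a log2 ratio of 1.19. The share of all bins above 0 in these 6 pairs was not computed, and the ratios are among those that chose the interval. Nothing is therefore read from this count. Without round 1, the round that carried the excess at ttm-1, or without any other single round or pair, the mean ratio of the unc-25 bin stayed between 0.53 and 1.00.

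The FMRFamide-like neuropeptide gene flp-14 (III:12910510-12914930) lies whole in the bin starting at 12910001. Its ratio was −0.19 ± 1.47 on the log2 scale (12 pairs), above 0 in 7. In GFP-LMN the flp-14 bin held 43, 100 and 66 Dam-EMR reads in rounds 1 to 3, or 49.7, 183 and 21.2 CPM, beside 48.4, 225 and 52 CPM of GFP-Dam. In GFP-LMN cec4 it held 39, 941 and 616 Dam-EMR reads, or 61.4, 303 and 100.0 CPM, beside 62.2, 149 and 55.4 CPM of GFP-Dam. Here the round that was lowest at ttm-1 was the highest, in Dam-EMR and in GFP-Dam alike. In Y59C the flp-14 bin held 1, 502 and 4 Dam-EMR reads, or 1.86, 194 and 114 CPM, beside 51.9, 145 and 34.5 CPM of GFP-Dam. In Y59C cec4 it held 3, 716 and 106 Dam-EMR reads, or 18.4, 168 and 34.1 CPM, beside 60.8, 207 and 27.7 CPM of GFP-Dam. Dam-EMR and GFP-Dam overlapped in each strain, and the lowest ratio, −3.80 in Y59C round 1, rests on 1 read against 794. The flp-14 bin took between 18.4% and 42.8% of the interval's Dam-EMR reads in round 2 and between 0.0316% and 2.87% in round 1.

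**Figure D2:**
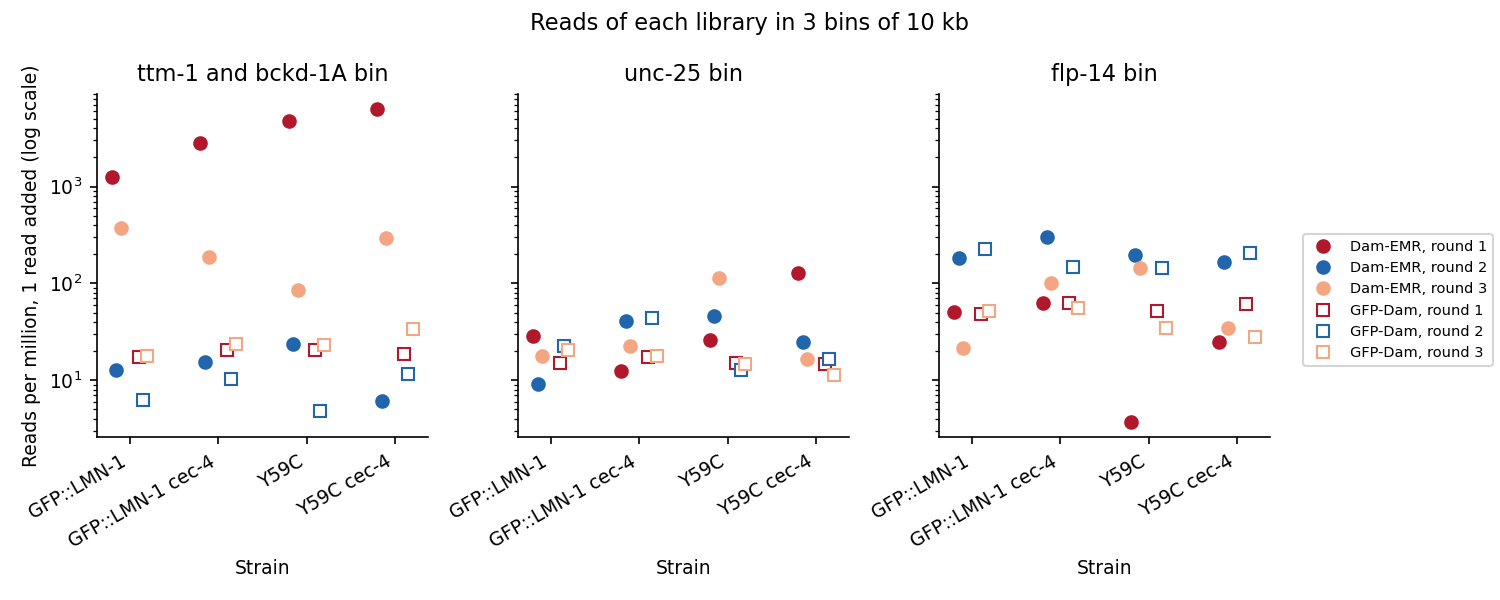
Levels in 3 bins, those of ttm-1 with bckd-1A, of unc-25 and of flp-14, for each library by strain and fusion, as CPM with 1 read added on a log axis, with colours for rounds. At ttm-1 with bckd-1A the round 1 Dam-EMR points lie above all others, and at flp-14 the round 2 points are the highest of GFP-Dam in each strain.

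The gene npp-25 (III:12920266-12925997), named as a nuclear pore complex protein, shares the bin starting at 12920001 with mrps-10, a gene of the small subunit of the mitochondrial ribosome, and part of rbm-7, a gene for an RNA-binding protein. This bin was the poorest in reads. Dam-EMR gave 0 to 35 reads with a median of 3.5, and GFP-Dam 13 to 197 reads with a median of 65.5. There were 0 Dam-EMR reads in 5 libraries, GFP-LMN rounds 2 and 3, GFP-LMN cec4 round 2, Y59C round 3 and Y59C cec4 round 1. A count of 0 allows up to 3 reads, which is 5.49, 0.962, 0.966, 85.8 and 18.4 CPM in these libraries. The ratio of the npp-25 bin was −0.81 ± 2.34 on the log2 scale (12 pairs), above 0 in 3, and in those 5 libraries it depends on the read added. Dam-EMR above 30 CPM was seen in round 1 alone, at 55.1 CPM in GFP-LMN cec4 and 37.2 CPM in Y59C.

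The other part of ttm-1, 7032 bases, fills most of the bin starting at 12950001, which showed a smaller excess than the bin beside it. Dam-EMR levels there were 22 CPM at the lowest, 76.1 CPM at the median and 505 CPM at the highest, and those of GFP-Dam 35, 40.7 and 95.7 CPM. The ratio was 1.05 ± 1.23 on the log2 scale (12 pairs), above 0 in 11 pairs. Its mean was 1.13 in round 1, 1.20 in round 2 and 0.82 in round 3, so the excess was not tied to round 1 as in the bin beside it, and the exception was −1.69 in GFP-LMN cec4 in round 1.

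Of the 5 remaining bins, that starting at 12970001 had ratios below 0 in 10 of 12 pairs, with a mean of −0.67 ± 1.11 on the log2 scale. It borders the bin of highest ratio, holds the rest of bckd-1A, and also holds ubq-2, a gene for ubiquitin fused to a ribosomal protein, and most of frg-1. The bin starting at 12990001, which contains the cuticle collagen gene col-97, had a mean of 0.85 ± 2.46 and was above 0 in 8 pairs, with values from −4.11 to 3.01. The bins of cox-5A, a gene of cytochrome c oxidase, at 12900001, of rbm-7 and epg-3 at 12930001, and of dbd-14 at 12980001 had means of −0.21 ± 1.31, −0.28 ± 2.24 and −0.07 ± 1.39. In all 5 of these bins the sign changed from pair to pair. The bins just outside the interval had means of −1.22 at 12890001 and 0.16 at 13000001. In order of mean ratio the 10 bins ran from ttm-1 with bckd-1A through the other ttm-1 bin, col-97 and unc-25 to dbd-14, flp-14, cox-5A, rbm-7 with epg-3, bckd-1A with ubq-2, and npp-25. From the second place down, each step in this order was smaller than the SD over pairs.

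A strain effect on emerin contact of the interval was tested as the change of the Dam-EMR to GFP-Dam ratio between strains, with edgeR's quasi-likelihood test over all bins and Benjamini-Hochberg adjustment. The interval was chosen by its mean ratio and by a ratio above 0 in every pair of every strain. The changes between strains were not themselves used in the choice, but they are computed from the same ratios. At 100 kb the ratio was 1.28 log2 units higher in Y59C than in GFP-LMN (SE 0.98, 95% interval −0.73 to 3.30, adjusted p = 0.997). The cec-4 mutation gave a change of 0.30 with unmutated lamin (SE 0.97, −1.70 to 2.29, adjusted p = 1). In the Y59C background its change was close to 0 (SE 0.98, −2.01 to 2.01, adjusted p = 1). Y59C cec4 differed from GFP-LMN by 1.28 (SE 0.97, −0.72 to 3.28, adjusted p = 0.992). No change passed the test. Each interval reaches beyond a 4-fold change in at least 1 direction, so a change of that size in that direction is not excluded. The fit behind these intervals had no term for the round. The difference between the effects of the cec-4 mutation with Y59C and with unmutated lamin was −0.30 (SE 1.38, adjusted p = 0.997).

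The direction of the Y59C change rested on round 1. In round 1 the ratio of the interval rose in the order GFP-LMN, GFP-LMN cec4, Y59C, Y59C cec4, and in rounds 2 and 3 Y59C was not above GFP-LMN. Without round 1 the change between Y59C and GFP-LMN was −0.26, without the Y59C libraries of round 1 it was −0.68, and without the reads of the bin at ttm-1 and bckd-1A it was 0.53. Without the shallow pair it was 1.59. The other changes depended on round 1 as well. The change from GFP-LMN to Y59C cec4 was close to 0 without round 1 and −0.45 without the round 1 pair of Y59C cec4. Without that pair the change from Y59C to Y59C cec4 was −1.74, and without the round 1 pair of GFP-LMN cec4 the change from GFP-LMN was −0.62. With the replicate number as a block the change between Y59C and GFP-LMN was 0.92, and with a block within each fusion 0.43. None of these passed the test.

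In none of the 4 strain comparisons was any of the 10 bins of 10 kb called by edgeR at adjusted p under 0.05, or at unadjusted p under 0.05. Of all bins, 10.8%, 2.53%, 13.6% and 4.59% had an unadjusted p under 0.05 in edgeR, in the order of comparisons above. The smallest edgeR p among the 10 bins was 0.0508, at 12930001 between Y59C cec4 and Y59C. DESeq2 called 0 of the 10 too, with 1, 0, 1 and 2 of them under an unadjusted p of 0.05, beside 11.9%, 3.65%, 16.8% and 6.8% of all bins. Over all 9735 tested bins edgeR called 0.0205% between Y59C and GFP-LMN, all lower in Y59C, and 0.0% in the other comparisons. At 100 kb it called 0.0% of 1004 bins in each, with 37, 10, 50 and 17 bins under an unadjusted p of 0.05, and DESeq2 called 0. In the bin at ttm-1 and bckd-1A the change from GFP-LMN was 1.07 in Y59C (SE 2.16), 0.13 in GFP-LMN cec4 (SE 2.16) and 1.03 in Y59C cec4 (SE 2.16). In the unc-25 bin the corresponding changes were 1.61 (SE 1.20), −0.03 (SE 1.18) and 1.79 (SE 1.18), with adjusted p of 0.711, 1 and 1. In the flp-14 bin they were 0.85 (SE 1.39), 1.25 (SE 1.36) and 0.25 (SE 1.37). The higher Dam-EMR levels of unc-25 in the Y59C strains thus did not pass the test. Y59C against unmutated lamin, pooled over intact and mutated cec-4, was not tested. The median change of all bins was −0.25 between Y59C and GFP-LMN and 0.26 between Y59C cec4 and Y59C.

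**Figure D3:**
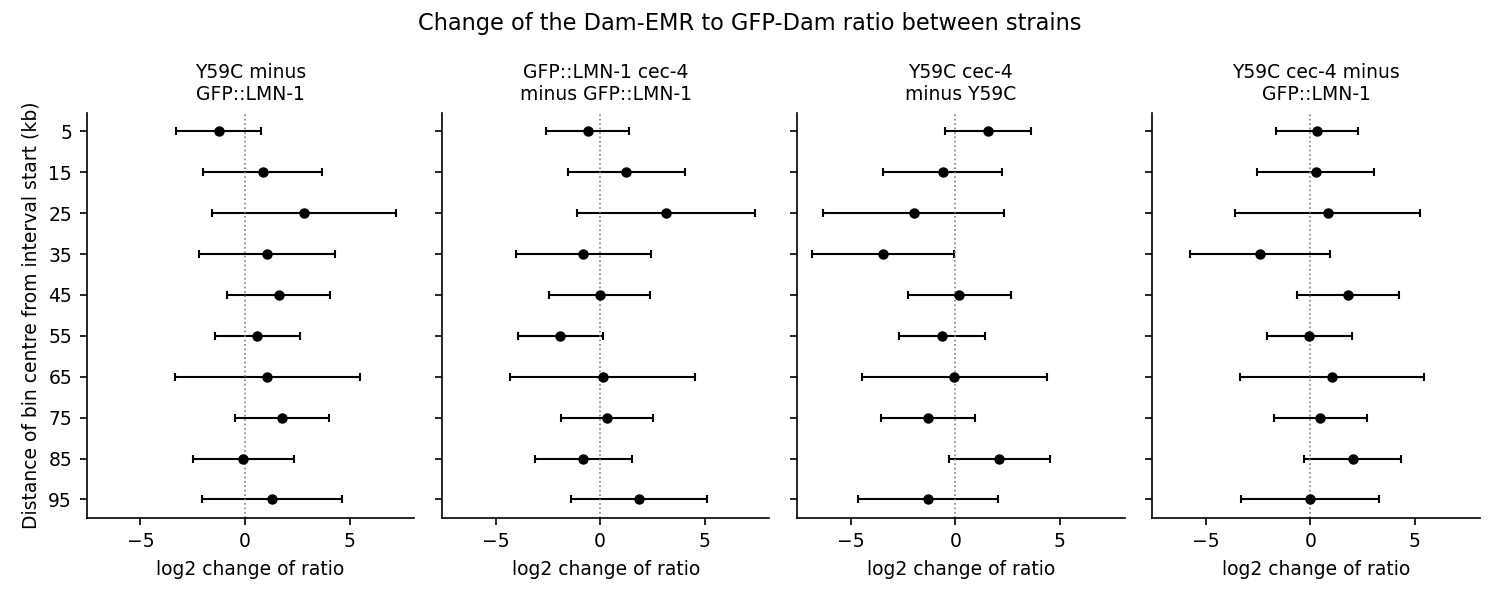
Change of the log2 Dam-EMR to GFP-Dam ratio between strains in each of the 10 bins, for the 4 strain comparisons. The 95% intervals are from standard errors computed on the edgeR fit, not from the test itself. They can differ from the test. At 12930001 the interval between Y59C cec4 and Y59C was −6.86 to −0.08, beside an unadjusted p of 0.0508 by the quasi-likelihood test. All intervals are several log2 units wide, and no bin passed the test.

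GFP-Dam alone, which reads accessibility, had no change between strains that passed the test in the interval. At 100 kb its change was −0.31 in Y59C (SE 0.68) and 0.03 in GFP-LMN cec4 (SE 0.68) against GFP-LMN, 0.29 in Y59C cec4 against Y59C (SE 0.68) and −0.01 in Y59C cec4 against GFP-LMN (SE 0.68), with adjusted p of 0.999 or above. Neither edgeR nor DESeq2 called any of the 10 bins of 10 kb in GFP-Dam, and none had an unadjusted p under 0.05. At most 0.0205% of all 10 kb bins had such a p in any of these comparisons with either tool. Over all bins edgeR called 0.0%.

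The 6 neighbouring bins of 100 kb were taken by position, and their averaged ratio over strains could be tested. None was called by edgeR, beside 6.87% of the 1004 bins called higher in Dam-EMR and 2.49% called lower. One of them, starting at 12600001, had an unadjusted p under 0.05, with a ratio of −0.30 (SE 0.13, adjusted p = 0.132), and DESeq2 also called 0 and had 1 under that p. Of all 1004 bins, 26.9% had an unadjusted p under 0.05 in edgeR and 28.7% in DESeq2. The remaining neighbours had ratios of 0.04 (SE 0.16) at 12700001, 0.02 (SE 0.18) at 12800001, −0.19 (SE 0.22) at 13000001, 0.30 (SE 0.19) at 13100001 and −0.05 (SE 0.16) at 13200001. The same fit gave 1.86 (SE 0.34) for the interval, quoted for scale only. With the replicate number as a block within each fusion, an alternative chosen after seeing the data, 2 neighbours were called lower, that at 12600001 with a ratio of −0.57 (adjusted p = 0.0198) and that at 13000001 with −0.99 (adjusted p = 0.0348). In none of the 4 strain comparisons was a neighbour called.

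**Figure D4:**
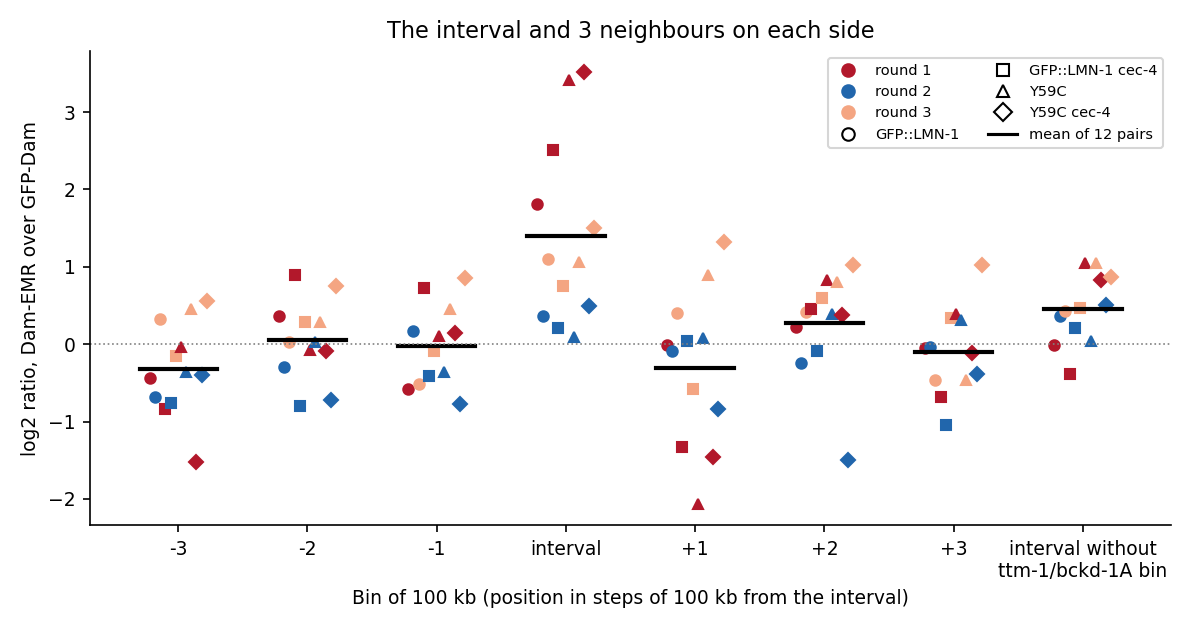
Log2 ratio of Dam-EMR to GFP-Dam in the 12 pairs for the interval, its 3 neighbours on each side and the interval without the bin at ttm-1 and bckd-1A, with colours for rounds, symbols for strains and a bar for the mean. The interval has a mean of 1.40, with round 1 at the top, and 0.45 once that bin is left out, while the neighbours have means between −0.32 and 0.27.

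Other parts of the genome followed the interval from pair to pair. By Pearson's r over the 12 pairs, the most alike bins of 100 kb outside it were V:18700001-18800000 (r = 0.972), with C-type lectin genes such as clec-255, X:8300001-8400000 (r = 0.968), with drd-5 and npr-28, and V:8600001-8700000 (r = 0.955), with asp-13. Their mean ratios were 5.22, 5.80 and 4.94 in round 1, while round 2 gave −0.11, −0.62 and −0.02, and round 3 gave 1.73, 1.08 and 0.62. The same comparison of 10 kb bins with the bin at ttm-1 and bckd-1A, added after seeing the data, gave V:18760001-18770000 at clec-255 (r = 0.978), X:8340001-8350000 at drd-5 and npr-28 (r = 0.961) and II:13150001-13160000 at hpr-17 and spe-18 (r = 0.907). All 6 bins had their highest mean in round 1, which follows from picking them by likeness to values that were highest in round 1. They are also not separate places, since the 10 kb bins at clec-255 and at drd-5 lie inside the 100 kb bins named with those genes. These correlations are descriptions over pairs that share rounds and libraries.

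Genes of the same pathways elsewhere in the genome were given the 10 kb bin of their midpoint, and their averaged Dam-EMR to GFP-Dam ratio was tested over all bins, of which edgeR called 1.29% higher and 1.8% lower, with a median of −0.07. Of all bins 20.2% had an unadjusted p under 0.05 in edgeR, and DESeq2 called 9.19%. Of 13 bins of GABA genes 0 were called (2 under an unadjusted p of 0.05, and 1 by DESeq2), with a median of 0.01 and lgc-35, a gene for a GABA-gated channel, nearest at 1.29 (SE 0.44, adjusted p = 0.101). Of 29 bins of FMRFamide-like peptide genes 1 was called higher and 0 lower (7 unadjusted, 4 by DESeq2), with a median of 0.09. It was the bin of flp-24, with a ratio of 2.65 (SE 0.71, adjusted p = 0.0458), above 0 in 8 of 12 pairs. The call was lost in 16 of 21 alternatives, including a replicate block (adjusted p = 0.0574) and leaving out any 1 round, where the adjusted p was 0.17, 0.226 and 0.274. Of 25 nucleoporin gene bins 0 were called (7 unadjusted, 4 by DESeq2), with a median of 0.33, and npp-15 came nearest with 1.34 (SE 0.38, adjusted p = 0.0519). It passed in 4 of 21 alternatives.

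The list of zinc transporter genes was not limited to the family of ttm-1 and took in all genes named zipt. Of its 18 bins 0 were called (5 unadjusted, 0 by DESeq2), with a median of −0.16. The nearest was that of zipt-15, lower in Dam-EMR, with an adjusted p of 0.0552, and it passed in 5 of 21 alternatives. Of 20 bins of pan-neuronal genes 0 were called (5 unadjusted, 1 by DESeq2), with a median of −0.15 and rab-3, a synaptic vesicle GTPase gene, nearest at −1.27 (SE 0.41, adjusted p = 0.085). Of 24 bins of body wall muscle genes 0 were called (4 unadjusted, 1 by DESeq2), with a median of −0.15 and pat-4, the integrin-linked kinase gene, nearest at −1.45 (SE 0.48, adjusted p = 0.0869). In the 4 strain comparisons edgeR called no bin of any of the 6 lists. DESeq2 called 2 FMRFamide-like peptide bins and 1 pan-neuronal bin between Y59C and GFP-LMN, where it called 1.2% of all bins, and 2 FMRFamide-like peptide bins between Y59C cec4 and Y59C, where it called 3.37%.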

How the data were processed

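The values used are mapped reads per bin, raw counts that the authors deposited for 24 libraries in bins of 10 kb and 100 kb of ce11, named in the submitters' processing notes. The aligner used is not given in the sources used here. Deposited log2 values, also made by the authors, are the log2 of the mean linear ratio over 3 replicates. They were recovered from the counts to rounding at 100 kb, and at 10 kb, with 1 read added, they differed by up to 0.361, so only the 100 kb log2 values are quoted. Per the labels, 200 ng of DNA was digested with DpnI for 6 h. The 10 kb table holds 10032 bins, of which 2 hold 1 in all libraries. Their reads, counted at 100 kb, are missing there, so the 10 kb totals are smaller (4726242 against 5965994 reads in GFP-Dam of Y59C cec4, round 3), and CPM is relative to the total of its own table.

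Counts were fitted over all bins with edgeR 4.0.16 in R 4.3.3 (quasi-likelihood, TMM factors, filterByExpr), with 8 groups sharing 1 estimate of the spread. All 10 bins of the interval passed the filter, as did 9735 bins of 10 kb and 1004 of 100 kb. Bins with an adjusted p under 0.05 were called. DESeq2 1.42.0, RLE factors, library totals alone, no filter, a replicate block, other pseudocounts and centring, and leaving out each round or pair were alternatives. A block within each fusion and leaving out the reads of the bin of highest ratio were added after seeing the data. Steps were tested on simulated data. Gene positions are from RefSeq for WBcel235, the same assembly.

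The members, lists and tests were chosen with earlier results of these data known. The genes named are those with a symbol in the interval and, of each list, up to 3 called bins or else the one with the smallest p. The design text says that strains were grown in parallel in each replicate, which pairs libraries by number. Within each fusion, deviations from the group means were correlated between libraries of different strains. For the same number the median r was 0.214 in Dam-EMR (range −0.24 to 0.56) and 0.631 in GFP-Dam (range 0.45 to 0.84). For different numbers it was −0.156 and −0.375, but deviations within a group cancel, so a positive r for the same number tends to force a negative one here. Dam-EMR was not compared with GFP-Dam in this way, so the pairing of the fusions rests on the design text.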

Additional observations from a re-analysis of the deposited data

How the results depend on the processing

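No strain change of the interval passed the test under any of 22 alternatives, with adjusted p between 0.653 and 1 for the ratio and between 0.856 and 1 for GFP-Dam. A replicate block gave ratio changes of 0.92, 0.13, 0.00 and 0.92 in the order Y59C against GFP-LMN, GFP-LMN cec4 against GFP-LMN, Y59C cec4 against Y59C and Y59C cec4 against GFP-LMN, and changed no call at the interval. It ended the call of flp-24 given above. Leaving out 1 round or pair at a time, the ratio changes ran from −0.68 to 1.79, from −0.62 to 0.74, from −1.74 to 1.96 and from −0.45 to 1.82 in that order, and the GFP-Dam changes of GFP-LMN cec4 from −0.12 to 0.18 and of Y59C cec4 from −0.12 to 0.14, each against GFP-LMN. The sign also turned without the reads of the bin at ttm-1 and bckd-1A, to −0.086 for GFP-LMN cec4 against GFP-LMN and −0.15 for Y59C cec4 against Y59C, and with library totals alone to −0.017 for GFP-Dam of GFP-LMN cec4. The neighbours called lower were 2 with a block within each fusion and 0 otherwise, and the cause was not tested. The mean ratio of the interval moved by less than its SD over pairs, 1.19, under every alternative run. That SD includes the differences between rounds, so this is a wide limit. Without the reads of the bin at ttm-1 and bckd-1A the mean was 0.45, against 1.40 with them. Leaving out 1 round or pair gave means of 0.70 to 1.96 for the interval and 1.92 to 5.25 for the bin at ttm-1 and bckd-1A.

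Counts over all bins depended on the tool. At 10 kb DESeq2 called 117, 0, 328 and 21 bins in the 4 strain comparisons, beside 2, 0, 0 and 0 by edgeR, and 517 higher and 378 lower on average, beside 126 and 175. At 100 kb it called 110 higher and 47 lower on average, beside 69 and 25, and a block within each fusion 161 and 141. Without round 3, edgeR called 1 higher and 0 lower at 100 kb. Depth limits the Dam-EMR side most, where the median 10 kb bin held between 1 and 210 reads, against 99 to 579 in GFP-Dam.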
